A study of Mus musculus with 71 samples.

Results

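The Ikaros family comprises 5 genes of the mouse, Ikzf1 to Ikzf5, which were taken by symbol from every RNA-seq table of a study of Pax5 domain mutants. They were 5 of 25579 genes in the 31 samples of bone marrow pro-B cells and progenitors, and 5 of 24420 genes in 17 samples of lymphoid progenitors and thymocytes. All mice were C57BL/6, and the cells were sorted by flow cytometry directly from bone marrow or thymus.

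Ikaros proteins are zinc finger transcription factors. Their N-terminal fingers bind DNA, and their C-terminal fingers allow members to pair with themselves and with each other, so that the set of members in a cell determines which dimers can form. Ikaros (Ikzf1) is required for lymphoid development, Aiolos (Ikzf3) is known from the transition of pro-B to pre-B cells and from mature B cells, and Helios (Ikzf2) and Eos (Ikzf4) are best known from T cells. Pegasus (Ikzf5) is the most distant member. Pax5 is the transcription factor that commits progenitors to the B cell lineage.

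The pro-B cells came from Pax5(+/+) mice (n = 5) and from 10 other genotypes (n = 2 each), in which D marks a deletion. Pax5(DOP/DOP), Pax5(DHD/DHD) and Pax5(DOP,HD/DOP,HD) mice lacked the octapeptide, the partial homeodomain or both. CRD1 and CRD2 are domains in the C-terminal regulatory part of Pax5. They were deleted in homozygous mice, Pax5(DCRD1/DCRD1), Pax5(DCRD2/DCRD2) and Pax5(DCRD1,2/DCRD1,2), and in hemizygous mice whose second allele was null, Pax5(DCRD1/-), Pax5(DCRD2/-) and Pax5(DCRD1,2/-). Vav-Cre Pax5(fl/fl) progenitors lacked functional Pax5, since Vav-Cre deletes the floxed allele from the haematopoietic stem cell onwards. A separate set compared Vav-Cre Pax5(fl/+), Vav-Cre Pax5(Prd/fl), whose only remaining allele encodes the paired domain alone, and Vav-Cre Pax5(fl/fl) cells (n = 2 each). Every mouse of this set carried Vav-Cre. The lymphoid series held wild-type LMPP (n = 2) from bone marrow, DN1 (n = 3), DN2a (n = 3), DN2b (n = 3), DN3a (n = 2) and DN3b (n = 2) thymocytes, and Rag2(-/-) DN3a thymocytes (n = 2). Replicate numbers repeat within DN1, DN2a and DN2b, and the labels do not say whether samples of equal number are independent. If they are not, the p-values of the steps that use these stages may be too small. The study's text gives an age of a few weeks for the mice whose bone marrow was sorted for the hemizygous CRD1 and CRD1,2 mutants.

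The values are TPM (a level that corrects for transcript length and depth, so that genes can be compared within a sample). Depth recovered from the pro-B tables ranged from 10018678 to 43784791 reads per sample, and it is unknown for the lymphoid tables. Pax5(+/+) samples were sequenced with 50-nt (n = 3) or 100-nt reads (n = 2) and did not overlap in Ikzf3 between these sets. Ratios within 1 read length therefore stand beside the fits. Read length goes with the series of library numbers, and the authors trimmed all reads to 50 nt before alignment. The term for read length thus stands for anything that differed between these sets of libraries, and such differences cannot be told apart. Progenitors and pro-B cells without CRD1,2 or without functional Pax5 were sorted by a gate of their own (Lin- Ly6D+ Kit hi B220+), and the gate and the genotype cannot be told apart there. In the paired domain set, Vav-Cre Pax5(Prd/fl) and Vav-Cre Pax5(fl/fl) samples are labelled as progenitors with alternative gating, and Vav-Cre Pax5(fl/+) samples as pro-B cells. The labels do not describe that gating. The summed level of 8 pro-B markers was 13443 to 17283 TPM in Pax5(+/+) samples and 4794 and 5224 TPM in Vav-Cre Pax5(fl/fl) progenitors. Myeloid markers (6 genes) summed to 1398 and 1901 TPM in Pax5(DOP/DOP) samples, against 141 to 664 TPM in Pax5(+/+) samples. Also above that range were 1 Pax5(DCRD2/-) sample (1663 TPM) and 1 Pax5(DCRD2/DCRD2) sample (1067 TPM). So were 1 Pax5(DOP,HD/DOP,HD) sample (753 TPM) and 1 Vav-Cre Pax5(fl/fl) sample (681 TPM), by less. Pax5 mRNA itself was 342 to 524 TPM in Pax5(+/+) samples and 1609 and 1697 TPM in Vav-Cre Pax5(fl/fl) progenitors. The value per gene sums the whole transcript, and so does not check the floxed deletion. In bulk samples, fewer cells of a type and less RNA per cell cannot be told apart. Nothing in the labels says that replicates came from separate mice, so the p-values measure the spread between these samples.

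The 5 genes lie on 4 chromosomes (GENCODE M21 on GRCm38). Ikzf1 spans chr11:11685003-11772926 on the plus strand, and the other members are on the minus strand. Ikzf3 lies at chr11:98464902-98546031, Ikzf2 at chr1:69531214-69687245, Ikzf4 at chr10:128630843-128645991 and Ikzf5 at chr7:131388652-131410521. Every member's locus overlaps at least 1 other annotated gene. For Ikzf5 these include the protein-coding genes Pstk, on the opposite strand, and Fgfr2. Whether the reads were counted by strand was not given, so reads of such neighbours cannot be told apart from its own where they overlap.

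In the pro-B samples, Ikzf1 was the dominant member and Ikzf3 the variable one. Ikzf1 made up 82.0% to 95.3% of the summed TPM of the 5 genes over all 31 samples. Ikzf3 was the second most abundant in Pax5(+/+) cells, with 5.29% to 13.9% of the sum, and 0.193% to 0.277% of it in Vav-Cre Pax5(Prd/fl) cells. Ikzf5 held 3.02% to 6.14%, whereas Ikzf2 and Ikzf4 never exceeded 0.295% and 0.191%.

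Ikzf3, Aiolos, was lower in every genotype without CRD1 than in Pax5(+/+) samples of the same read length. Its values in Pax5(+/+) samples were 51.7, 51.9 and 67.0 TPM with 50-nt reads and 15.0 and 27.1 TPM with 100-nt reads. Both 100-nt samples were below every 50-nt sample. Pax5(DCRD1/-) cells had 1.14 and 1.48 TPM, from 64 and 82 reads. These values were 6.22% of the mean of Pax5(+/+) samples of the same read length, and the groups did not overlap. Cd2, a surface molecule that the pro-B gate excludes, was 2.89 to 7.79 TPM in Pax5(+/+) samples and 0 TPM in both Pax5(DCRD1/-) samples. The part of Cd2-positive cells in this difference was not tested, and Cd2 was chosen after its values were seen.

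Ikzf3 was similarly low where both C-terminal domains or all of Pax5 were lost. The values were 1.036 and 1.103 TPM in Pax5(DCRD1,2/-) cells, 1.26 and 1.85 TPM in Pax5(DCRD1,2/DCRD1,2) cells and 1.74 and 2.23 TPM in Vav-Cre Pax5(fl/fl) progenitors. Relative to Pax5(+/+) samples of their own read length, these were 5.07%, 7.39% and 3.49%. None of the 6 samples reached the lowest Pax5(+/+) value. The progenitors were also the samples with 493 and 801 TPM of plasmacytoid dendritic cell markers (4 genes, 123 to 212 TPM in Pax5(+/+) samples), and the part of this in the result was not tested.

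**Figure D1:**
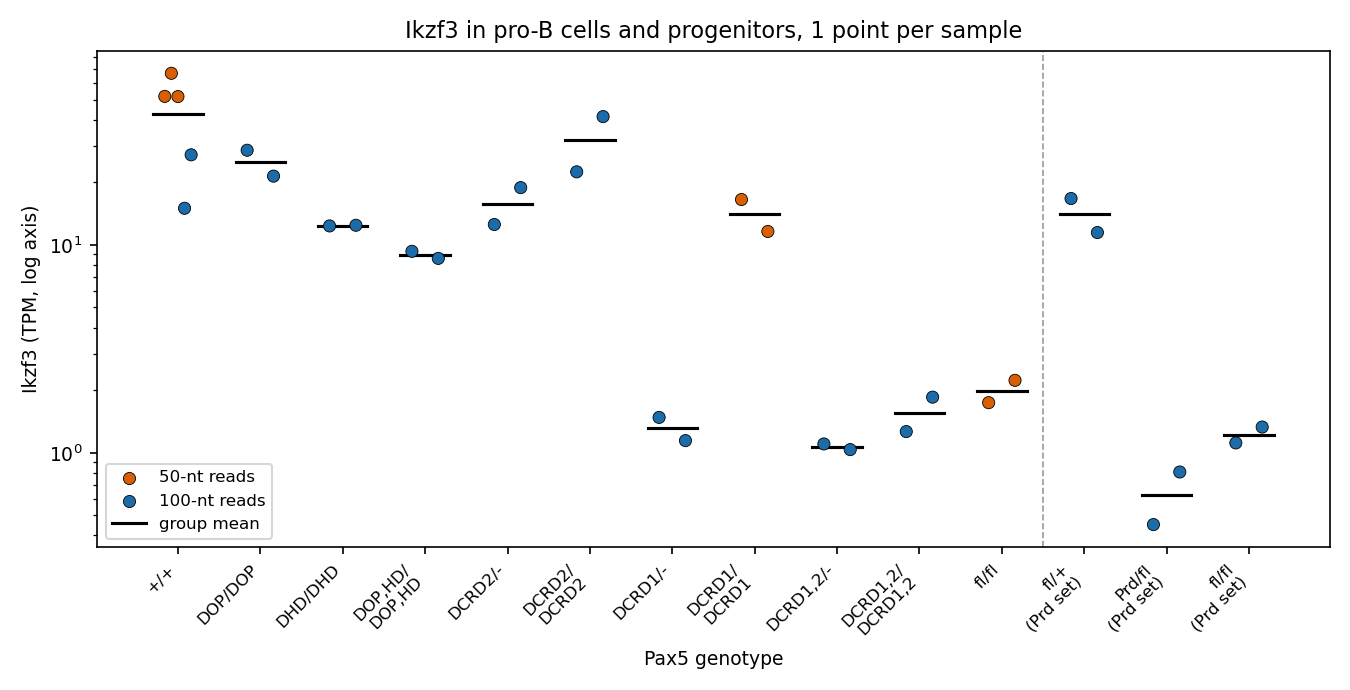
Ikzf3 level in TPM (log axis) in each pro-B or progenitor sample by Pax5 genotype, coloured by read length, with the group mean as a line and the paired domain set right of the dashed line. The Pax5(DCRD1/-), both CRD1,2 and all Vav-Cre Pax5(fl/fl) and Vav-Cre Pax5(Prd/fl) samples lie at or below 2.23 TPM, whereas the other samples lie at or above 8.61 TPM.

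Each comparison was tested by limma on log2(TPM + 0.1) across all genes above 1 TPM in a sample, with read length as a term where both lengths occurred. A gene was called at an adjusted p (Benjamini-Hochberg) under 0.05. Of the 4 members tested (Ikzf4 stayed under 1 TPM), only Ikzf3 was called in Pax5(DCRD1/-) against Pax5(+/+) cells, where 8.51% of all genes were called. Its log2 fold change was -3.86 ± 0.31 (SE, adjusted p = 4.8e-05), a 14.5-fold lower level on the log2(TPM + 0.1) scale. The same single member was called in Pax5(DCRD1,2/-) cells, against a background of 20.2% of genes, with a log2 fold change of -4.12 ± 0.31 (adjusted p = 1.0e-05). In Vav-Cre Pax5(fl/fl) progenitors, where 31.7% of genes were called, Ikzf3 was again the only member, at -4.77 ± 0.29 (adjusted p = 7.1e-07). These 3 comparisons share the Pax5(+/+) samples.

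In hemizygous cells, removal of CRD2 in addition to CRD1 gave no further call among the 4 members tested. Between Pax5(DCRD1,2/-) and Pax5(DCRD1/-) cells, the background was 2.17% of genes. Ikzf3 differed by -0.26 ± 0.31 on the log2 scale (adjusted p = 0.76), and no member had an unadjusted p under 0.05. edgeR on the recovered reads also called 0 members.

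Ikzf3 was also called in the homozygous CRD1 deletion, at a higher level than in the hemizygous one, but that difference was not called. Pax5(DCRD1/DCRD1) cells had 11.6 and 16.5 TPM, which were 24.8% of the mean of the Pax5(+/+) samples with 50-nt reads and did not overlap with them. The log2 fold change was -2.02 ± 0.32 (adjusted p = 0.0016), where 8.16% of genes were called. Without the term for read length it was -1.43 and was no longer called (adjusted p = 0.088). Both hemizygous samples were sequenced with 100-nt and both homozygous samples with 50-nt reads, so the direct comparison depends on the term for read length. In it, Ikzf3 was higher in homozygous cells by 1.84 ± 0.47 (adjusted p = 0.36), and 0 of 13598 genes were called by limma (0%), with 819 genes at an unadjusted p under 0.05. edgeR called 19 genes in this comparison, which was added after the values were seen.

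For CRD2 and CRD1,2, too, Ikzf3 was higher in each homozygous sample than in each hemizygous one, without a call. Pax5(DCRD2/-) cells had 12.5 and 18.9 TPM, and Pax5(DCRD2/DCRD2) cells had 22.5 and 41.5 TPM. The groups did not overlap, yet the log2 difference of 0.98 ± 0.35 was not called (adjusted p = 0.45, background 0.272%, unadjusted p = 0.015). Pax5 mRNA was 241 and 304 TPM in the hemizygous and 464 and 512 TPM in the homozygous CRD2 mutants. The higher of the homozygous CRD2 samples also had 16.4 TPM of Cd2, a surface molecule that the pro-B gate excludes, against 2.22 TPM in the other sample and 0.648 and 1.11 TPM in the hemizygous samples. Cd2 was 0.435 and 0.725 TPM in Pax5(DCRD1/DCRD1) cells and at most 0.146 TPM in both CRD1,2 genotypes. Vav-Cre Pax5(fl/fl) progenitors had 0.681 and 1.37 TPM, overlapping with the hemizygous CRD2 samples. The part of such cells in the Ikzf3 values was not tested, and Cd2 was chosen after its values were seen. For CRD1,2, the homozygous cells exceeded the hemizygous ones by 0.48 ± 0.35 (adjusted p = 1.0, background 0.228%).

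CRD2 deletion alone was not distinguished from wild type in any member. Of 4 members tested, 0 were called in Pax5(DCRD2/-) cells (background 0.513%) and 0 in Pax5(DCRD2/DCRD2) cells (background 0.0956%), and no member had an unadjusted p under 0.05. edgeR called 0 in both. Ikzf3 differed by -0.39 ± 0.31 and by 0.59 ± 0.35 on the log2 scale.

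Homozygous loss of both domains gave Ikzf3 a log2 fold change of -3.64 ± 0.35 (adjusted p = 9.1e-06), in a comparison where 24.6% of genes were called. Against the homozygous CRD1 deletion, the log2 fold change of Ikzf3 was -1.62 ± 0.47, which limma did not call (adjusted p = 0.12, background 1.71%). edgeR on the recovered reads called it (log2 fold change -1.74, adjusted p = 0.039). The homozygous CRD1 samples had 50-nt and the homozygous CRD1,2 samples 100-nt reads. This comparison and the interaction that follows therefore depend on the term for read length. Without that term, the log2 fold change of Ikzf3 between these genotypes was -3.10 and was called by limma (adjusted p = 0.0035). The effect of losing CRD2 on top of CRD1 did not differ detectably between homozygous and hemizygous cells for Ikzf3, with an interaction of -1.36 ± 0.59 (limma adjusted p = 0.76, background 0.0294%).

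Ikzf1, Ikaros, moved little. Its 14 group means ran from 197 TPM in Pax5(DCRD1,2/DCRD1,2) to 333 TPM in Vav-Cre Pax5(fl/fl) cells, and neighbours in this order overlapped down to Pax5(DCRD1/-). Its values in Pax5(+/+) samples were 316, 356 and 396 TPM with 50-nt and 256 and 282 TPM with 100-nt reads.

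Ikzf1 was lower in the homozygous mutants that lack CRD1. The log2 fold change was -0.48 ± 0.10 in Pax5(DCRD1/DCRD1) cells (adjusted p = 0.012) and -0.45 ± 0.11 in Pax5(DCRD1,2/DCRD1,2) cells (adjusted p = 0.011). The values were 241 and 267 TPM in the former and 190 and 203 TPM in the latter, and neither pair overlapped with Pax5(+/+) samples of its read length. The first call was lost among samples of 50-nt reads alone (log2 fold change -0.48, adjusted p = 0.12), without the first Pax5(DCRD1/DCRD1) sample (-0.41, adjusted p = 0.16) and without the term for read length (-0.32, adjusted p = 0.22). The second was lost without the fourth Pax5(+/+) sample (-0.38, adjusted p = 0.068) or the first mutant sample (-0.41, adjusted p = 0.081).

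In the remaining C-terminal mutants Ikzf1 was not called. In Pax5(DCRD1,2/-) cells it was 204 and 218 TPM, with a log2 fold change of -0.35 ± 0.12 (adjusted p = 0.069, and 0.046 without the fifth Pax5(+/+) sample). Vav-Cre Pax5(fl/fl) progenitors kept 321 and 344 TPM, inside the range of the 50-nt Pax5(+/+) samples (log2 fold change -0.09 ± 0.11, adjusted p = 0.59).

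Ikzf5, Pegasus, was 12.5 to 18.7 TPM in Pax5(+/+) samples and 9.29 to 16.5 TPM in all mutants. It was called in 0 of 18 pro-B comparisons by limma and in 0 by edgeR, with its lowest adjusted p at 0.16, for Pax5(DCRD1,2/-) against Pax5(+/+) cells (log2 fold change -0.42 ± 0.19). The values there were 9.29 and 10.3 TPM, below each of the Pax5(+/+) samples, and the difference was called without the term for read length (-0.54, adjusted p = 0.032).

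Ikzf2, Helios, was low in pro-B cells. It was above 1 TPM in 1 of 31 samples, and 11 to 156 reads stood behind its values. In Pax5(+/+) cells it was 0.562, 0.987 and 1.43 TPM with 50-nt and 0.214 and 0.566 TPM with 100-nt reads. Pax5(DCRD1/-) cells had 0.0855 and 0.141 TPM, below both 100-nt samples, and the log2 fold change of -1.11 ± 0.61 was not called (adjusted p = 0.34). Pax5(DCRD1,2/DCRD1,2) cells, at 0.152 and 0.170 TPM, were also below both, whereas Pax5(DCRD1,2/-) cells, at 0.0711 and 0.218 TPM, overlapped with them. Ikzf2 passed the limma filter of 1 TPM in these fits only through the Pax5(+/+) sample at 1.43 TPM. The smallest adjusted p of Ikzf2 in the 12 pro-B comparisons that included it was 0.31. In the paired domain set it was 0.416 and 0.471 TPM in Vav-Cre Pax5(fl/+), 0.239 and 0.309 TPM in Vav-Cre Pax5(Prd/fl) and 0.146 and 0.257 TPM in Vav-Cre Pax5(fl/fl) cells, where it was too low for the limma filter of 1 TPM. edgeR over all genes with 10 reads or more called the last as lower than the first (log2 fold change -1.11, adjusted p = 0.039, 38.7% of genes called), whereas limma over every gene above 0 did not (-0.87, adjusted p = 0.099).

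Ikzf4, Eos, was at most 0.557 TPM in the pro-B samples, and it was listed at 0 in 1 Pax5(+/+) and 1 Pax5(DCRD2/DCRD2) sample, where 0 reads allow up to 0.0462 and 0.0417 TPM (3 reads, counting error only). Its Pax5(+/+) values were 0.115, 0.128 and 0.134 TPM with 50-nt reads, from 7 reads each, and 0 and 0.0806 TPM with 100-nt reads. In Vav-Cre Pax5(fl/fl) progenitors it was 0.4969 and 0.4999 TPM, from 20 and 10 reads. Cells of the paired domain set had 0.421 and 0.484 TPM in Vav-Cre Pax5(fl/fl), 0.446 and 0.557 TPM in Vav-Cre Pax5(Prd/fl) and 0.131 and 0.228 TPM in Vav-Cre Pax5(fl/+) samples. All 6 samples without functional or full-length Pax5 were above all 7 of these controls.

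The low counts set how firmly the Ikzf4 difference can be stated. When every gene above 0 was tested by limma, Ikzf4 was higher in Vav-Cre Pax5(fl/fl) progenitors than in Pax5(+/+) cells by 1.41 ± 0.32 (adjusted p = 0.010, 22.1% of genes called). edgeR on the reads gave 1.93 (adjusted p = 0.089). The same limma fit also called it as higher in Pax5(DCRD1,2/DCRD1,2) than in Pax5(+/+) cells (1.20 ± 0.36, adjusted p = 0.041, 15.6% of genes called), where edgeR gave 2.41 (adjusted p = 0.15). In the paired domain set, edgeR called it in Vav-Cre Pax5(fl/fl) cells (log2 fold change 1.35, adjusted p = 0.027, 38.7% of genes called) and in Vav-Cre Pax5(Prd/fl) cells (1.44, adjusted p = 0.021, 38.8% of genes called). limma over every gene above 0 gave adjusted p = 0.071 and 0.051.

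Ikzf3 was also low in progenitors with the paired domain alone. In this set, too, gate and genotype cannot be told apart between the mutants and the heterozygous pro-B cells. Vav-Cre Pax5(fl/+) pro-B cells, with 1 full-length allele, had 11.5 and 16.7 TPM. Vav-Cre Pax5(Prd/fl) cells had 0.451 and 0.808 TPM, from 23 and 58 reads, and Vav-Cre Pax5(fl/fl) cells had 1.11 and 1.33 TPM. Both mutants were far below the heterozygous samples. Plasmacytoid dendritic cell markers (4 genes) summed to 315 and 372 TPM in Vav-Cre Pax5(Prd/fl) and 311 and 381 TPM in Vav-Cre Pax5(fl/fl) samples. They summed to 173 and 175 TPM in Vav-Cre Pax5(fl/+) samples, and the part of this in the result was not tested.

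Of the 3 members tested, Ikzf3 alone was called against Vav-Cre Pax5(fl/+) cells. The log2 fold change was -4.30 ± 0.34 in Vav-Cre Pax5(Prd/fl) cells (adjusted p = 2.1e-04, background 40.7%) and -3.40 ± 0.34 in Vav-Cre Pax5(fl/fl) cells (adjusted p = 5.5e-04, background 39.9%). Vav-Cre Pax5(Prd/fl) cells had less Ikzf3 than Vav-Cre Pax5(fl/fl) cells without overlap, with a log2 fold change of -0.90 ± 0.34. This was not called by limma (adjusted p = 0.22, unadjusted p = 0.034, background 1.97%), and edgeR called 0 members. Ikzf1 was 220 to 278 TPM over these 6 samples and was not called. Without the second Vav-Cre Pax5(Prd/fl) sample, which had 278 TPM against 220 TPM in the first, Ikzf1 was called as lower than in Vav-Cre Pax5(fl/+) cells (log2 fold change -0.24, adjusted p = 0.028), beside -0.07 ± 0.12 with it.

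The central domains gave no call among the 3 members tested, although the Ikzf3 values of 2 of the 3 mutants lay below those of the controls. The controls here were the 100-nt Pax5(+/+) samples, with 15.0 and 27.1 TPM. Pax5(DHD/DHD) cells had 12.3 and 12.4 TPM, and Pax5(DOP,HD/DOP,HD) cells had 8.61 and 9.32 TPM, both below the controls. Pax5(DOP/DOP) cells had 21.4 and 28.6 TPM, within the range of the controls or just above it.

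By limma 0 members were called in Pax5(DOP/DOP) (background 0.485%), Pax5(DHD/DHD) (0.639%) and Pax5(DOP,HD/DOP,HD) cells (1.22%). At an unadjusted p under 0.05 there were 0, 1 and 1 members, and the one was Ikzf3 both times. Its log2 fold changes were -0.70 ± 0.27 (adjusted p = 0.35) without the homeodomain and -1.16 ± 0.27 (adjusted p = 0.12) without both domains. edgeR on the recovered reads called the latter (log2 fold change -1.23, adjusted p = 0.014).

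**Figure D2:**
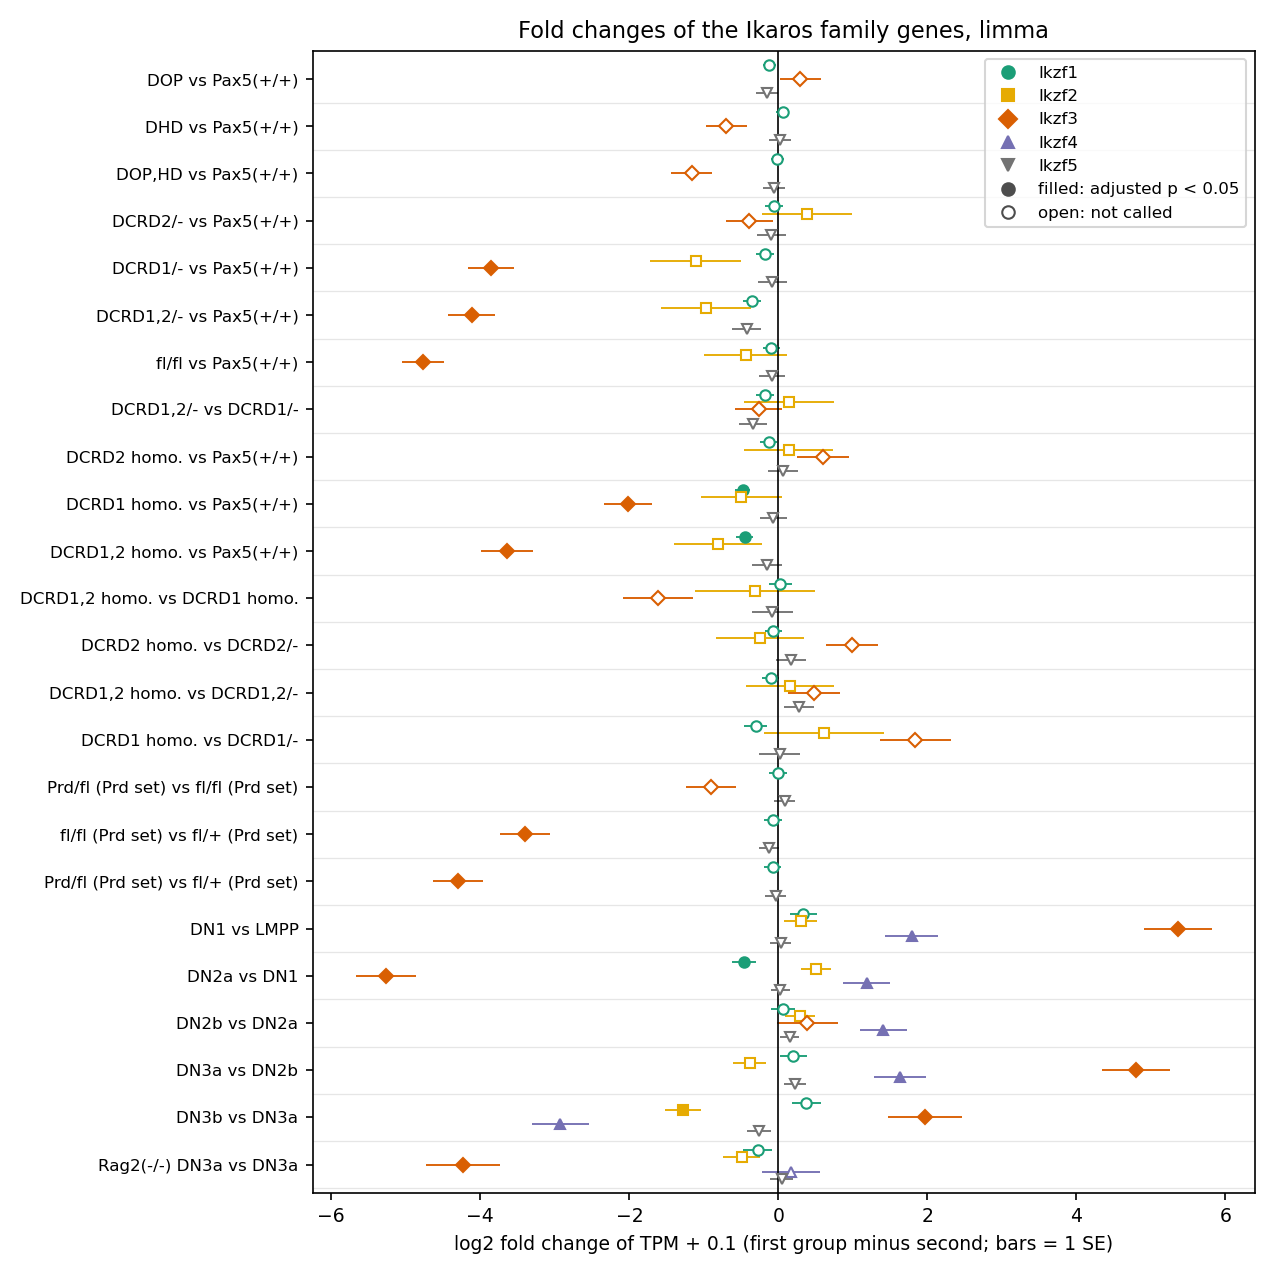
Log2 fold change of TPM + 0.1 for each member tested in the 24 comparisons, first group minus second, with bars of 1 SE and filled symbols for adjusted p under 0.05. Ikzf3 lies between -4.77 and -2.02 in the 7 pro-B comparisons that called it and between -5.26 and 5.36 in the lymphoid steps, whereas the largest change of Ikzf5 is -0.42.

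Ikaros proteins act through chromatin complexes, and 22 genes of these partners (subunits of the NuRD complex with its remodeller Chd4, the Sin3 and CtBP corepressors, Polycomb group proteins, Smarca4 and Crbn) were examined beside the family. In Vav-Cre Pax5(fl/fl) progenitors against Pax5(+/+) cells, 2 of 22 were higher and 3 lower, beside 31.7% of all genes. Their median log2 fold change was -0.24, against 0.01 over all genes tested. Smarca4, the ATPase of the BAF remodelling complex, had a log2 fold change of -2.29 (adjusted p = 2.9e-06), from a mean of 2009 to 439 TPM. Ezh2, the methyltransferase of the Polycomb repressive complex, fell by 1.28 (adjusted p = 0.0037), and Mta2 by 0.31 (adjusted p = 0.033). The CtBP corepressor Ctbp2 and the NuRD subunit Mta3 rose by 1.87 (adjusted p = 4.1e-04) and 0.89 (adjusted p = 3.8e-04). In the other Pax5(+/+) comparisons at most 5 of the 22 partners were called. The share of all genes called there ran from 0.0956% in Pax5(DCRD2/DCRD2) to 24.6% in Pax5(DCRD1,2/DCRD1,2) cells.

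Of 11 genes known as targets of Ikaros, 10 were tested in the same comparison, with 2 higher and 4 lower and a median of -0.29. Dtx1, a Notch pathway gene, fell by 2.31 (adjusted p = 0.0010), Rag2 of the V(D)J recombinase by 1.73 (adjusted p = 0.0045) and Vpreb1 of the surrogate light chain by 1.69 (adjusted p = 3.3e-05). Myc rose by 1.47 (adjusted p = 5.1e-05) and Dntt, the terminal transferase, by 0.64 (adjusted p = 0.0052). Many of these genes are also known as targets of Pax5, E2A or Notch, and 4 of the 11 also stand in the pro-B or early T marker lists.

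The lymphoid series was aligned to another build and is compared only within itself. In it, 4 of the 5 members were called in at least 1 step. Single steps called 18.2% to 53.4% of all genes, and the share of genes called in at least 1 step was not computed. The only call of Ikzf1 was lost in 11 of 27 alternative fits. Ikzf1 remained the main member at 73.0% to 91.0% of the summed TPM. Ikzf2 and Ikzf4 held 1.99% to 12.2% and 0.133% to 15.3%. Mean values of the 2 TPM entries per gene were used throughout.

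The labelled stages were checked by markers. Early T markers (8 genes) summed to 116 and 122 TPM in LMPP, to 1861 to 2121 TPM in DN1, to 14683 and 14888 TPM in DN3a and to 8153 and 8157 TPM in DN3b cells. Myeloid markers (6 genes) summed to 1897 to 2144 TPM in DN1 and to 1811 and 1886 TPM in LMPP samples. Of these 6 genes, limma called 2 as higher and 1 as lower in DN1 than in LMPP, with a median log2 fold change of -0.23. NK and innate lymphoid markers (5 genes) summed to 735 to 825 TPM in DN1 and to 357 and 417 TPM in LMPP samples. In DN2a and DN2b cells they summed to 629 to 822 TPM and 729 to 873 TPM. Few of the 5 genes carried these sums: 3 averaged above 1 TPM in DN1, 1 in LMPP and 2 each in DN2a and DN2b cells. Rag2, still measured at 35.5 and 42.2 TPM in Rag2(-/-) DN3a cells, does not check the knockout at the level of the whole gene.

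Ikzf3 was on at DN1, off at DN2a and DN2b, and on again at DN3a and DN3b. It was listed at 0 and 0.137 TPM in LMPP and at 5.69, 5.98 and 7.16 TPM in DN1 cells. All DN2a and DN2b samples lay between 0 and 0.146 TPM. DN3a cells had 5.81 and 6.04 TPM and DN3b cells 22.16 and 25.03 TPM. The groups of successive stages did not overlap except for DN2a and DN2b.

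The steps of Ikzf3 were called at every transition but that from DN2a to DN2b. From LMPP to DN1, where 18.6% of genes were called, its log2 fold change was 5.36 ± 0.45 (adjusted p = 1.5e-06). At DN1 to DN2a (33.7% of genes called) it fell by 5.26 ± 0.41 (adjusted p = 7.8e-07), and at DN2b to DN3a (45.8%) it rose by 4.80 ± 0.45 (adjusted p = 2.7e-06). At DN3a to DN3b (53.4%) it rose by 1.97 ± 0.50 (adjusted p = 0.0042), which was of the same size but not called with a pseudocount of 0.01 (1.99, adjusted p = 0.19). From DN2a to DN2b (18.2%) the difference of 0.39 ± 0.41 was not called (adjusted p = 0.56).

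Rag2(-/-) DN3a thymocytes, which cannot rearrange T cell receptor genes and do not pass the beta-selection checkpoint, had little Ikzf3. Their values of 0.103 and 0.406 TPM were below both wild-type DN3a samples. The log2 fold change was -4.23 ± 0.50 (adjusted p = 8.6e-05), where 26.4% of genes were called and Ikzf3 was the only 1 of 5 members. Cd2 was 0 and 0.134 TPM in these cells, 1.17 and 2.18 TPM in wild-type DN3a and 32.6 and 36.6 TPM in DN3b cells, and it was 5.73 to 8.27 TPM in DN1 and at most 0.497 TPM in DN2a and DN2b cells. Its order of stages was thus close to that of Ikzf3, and the part of DN3b cells in the wild-type DN3a samples was not tested.

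Ikzf4 rose stepwise to DN3a and fell at DN3b. It was 0.359 and 0.472 TPM in LMPP, 1.19 to 2.03 TPM in DN1, 2.32 to 6.00 TPM in DN2a, 7.34 to 13.2 TPM in DN2b and 29.8 and 36.8 TPM in DN3a cells. DN3b cells had 4.16 and 4.40 TPM. No 2 successive stages overlapped.

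Each of the 5 steps of Ikzf4 was called. Its log2 fold changes were 1.79 ± 0.35 into DN1 (adjusted p = 0.0023), 1.19 ± 0.32 into DN2a (adjusted p = 0.012), 1.41 ± 0.32 into DN2b (adjusted p = 0.0062) and 1.63 ± 0.35 into DN3a (adjusted p = 0.0022). Into DN3b it fell by 2.92 ± 0.39 (adjusted p = 2.8e-05), the opposite direction to Ikzf3. The step into DN2a was lost without 1 of the DN1 samples (log2 fold change 0.96, adjusted p = 0.055). Rag2(-/-) DN3a cells kept the gene at 34.1 and 40.9 TPM, with a difference of 0.17 ± 0.39 from wild-type DN3a cells (adjusted p = 0.80).

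**Figure D3:**
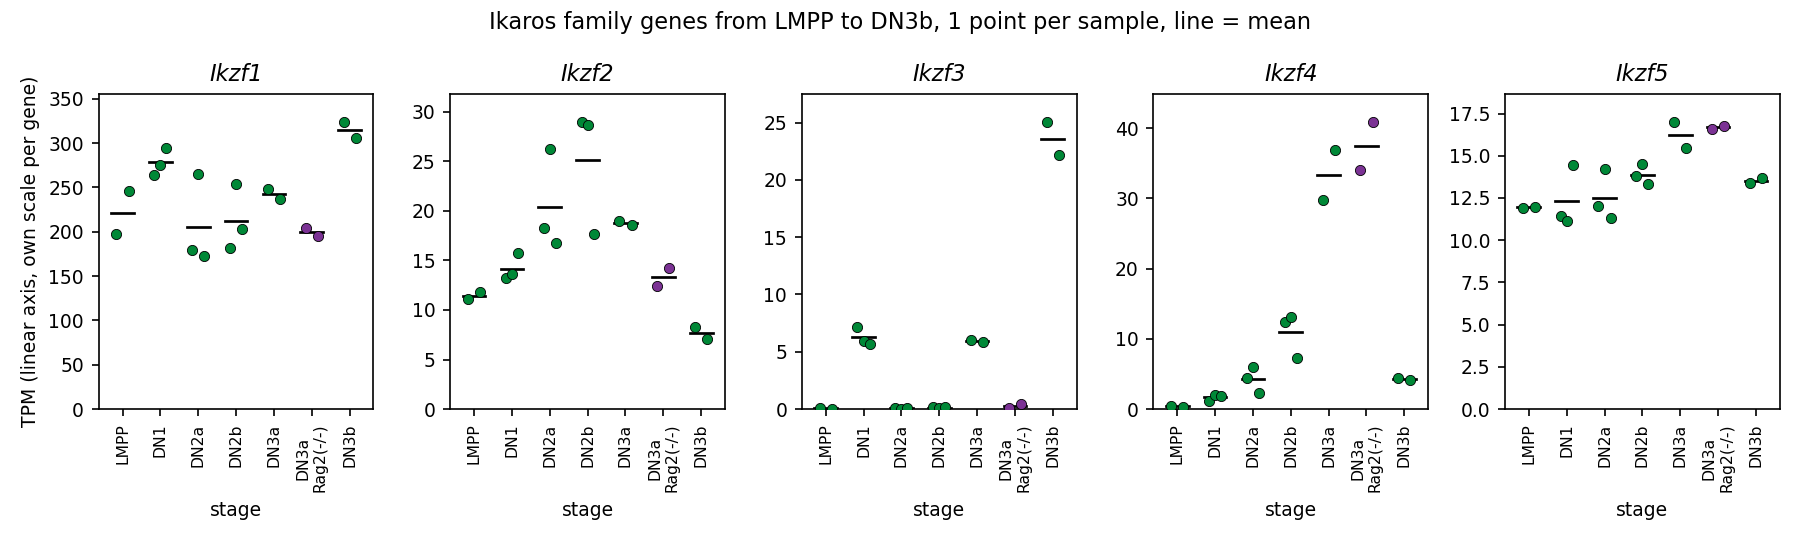
TPM of each member in every lymphoid sample (linear axes from 0 with a scale per gene, wild type green, Rag2(-/-) purple), with the mean of each stage as a line. Ikzf3 is at 5.69 TPM or above in DN1, DN3a and DN3b and near 0 elsewhere, whereas Ikzf4 climbs to 29.8 TPM or above at DN3a and drops at DN3b.

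Ikzf2 was present at all stages and fell at DN3b. It was 11.1 and 11.8 TPM in LMPP, 13.2 to 15.7 TPM in DN1, 16.7 to 26.3 TPM in DN2a, 17.7 to 28.9 TPM in DN2b, 18.5 and 18.9 TPM in DN3a and 7.03 and 8.33 TPM in DN3b cells. The fall at DN3b, by 1.28 ± 0.24 on the log2 scale (adjusted p = 5.7e-04), was its only call. The difference from DN1 to DN2a (0.50 ± 0.20, adjusted p = 0.066) was called after quantile normalization (adjusted p = 0.0014) and median-of-ratios scaling (adjusted p = 0.0040). The DN2b sample with 17.7 TPM stood apart from the other two, at 28.7 and 28.9 TPM. Without it, Ikzf2 was called both at DN1 to DN2a (adjusted p = 0.027) and at DN2b to DN3a, with a log2 fold change of -0.62 (adjusted p = 0.023) in place of -0.38 (adjusted p = 0.18). Rag2(-/-) DN3a cells had 12.4 and 14.2 TPM, below wild type, and the difference of -0.49 ± 0.24 was not called (adjusted p = 0.15).

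Ikzf1 was 172 to 324 TPM over the 17 samples. It was highest in DN3b cells (306 and 324 TPM), above the 264 to 295 TPM of DN1 cells. DN2a samples had 172, 179 and 265 TPM, and 1 of them was thus within the DN1 range. The fall from DN1 to DN2a, by 0.46 ± 0.16 (adjusted p = 0.037), was its only call, and 11 of its 27 alternative fits lost it, among them the fit with the replicate number as a block (adjusted p = 0.059) and those without any 1 of the DN1 samples, the DN3a samples or the lower DN2a samples (adjusted p between 0.052 and 0.16). The difference of 0.38 ± 0.19 into DN3b was not called (adjusted p = 0.12), but median-of-ratios scaling gave 0.74 (adjusted p = 5.2e-04), and it was called without the DN2a sample at 265 TPM (adjusted p = 0.038). That scaling moved the median of all genes at this step from -0.41 to -0.07.

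Ikzf5 was 11.1 to 17.0 TPM in the lymphoid series. It was called in 0 of 6 steps by limma, none of them at an unadjusted p under 0.05, and its largest change was -0.26 ± 0.16 into DN3b (adjusted p = 0.18).

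By count, 2 of 5 members were called from LMPP to DN1 (beside 18.6% of all genes), 3 from DN1 to DN2a (33.7%), 1 from DN2a to DN2b (18.2%), 2 from DN2b to DN3a (45.8%) and 3 from DN3a to DN3b (53.4%). From DN2a onwards these counts were near the share of all genes called. Under the study's stricter rule (which asks in addition for a change of more than 3-fold and for one group to average over 5 TPM), 5 of the 5 lymphoid calls of Ikzf3 and 7 of its 7 pro-B calls remained. Of the 5 calls of Ikzf4, 2 remained (into DN3a and into DN3b), and those of Ikzf1 and Ikzf2 did not.

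**Figure D4:**
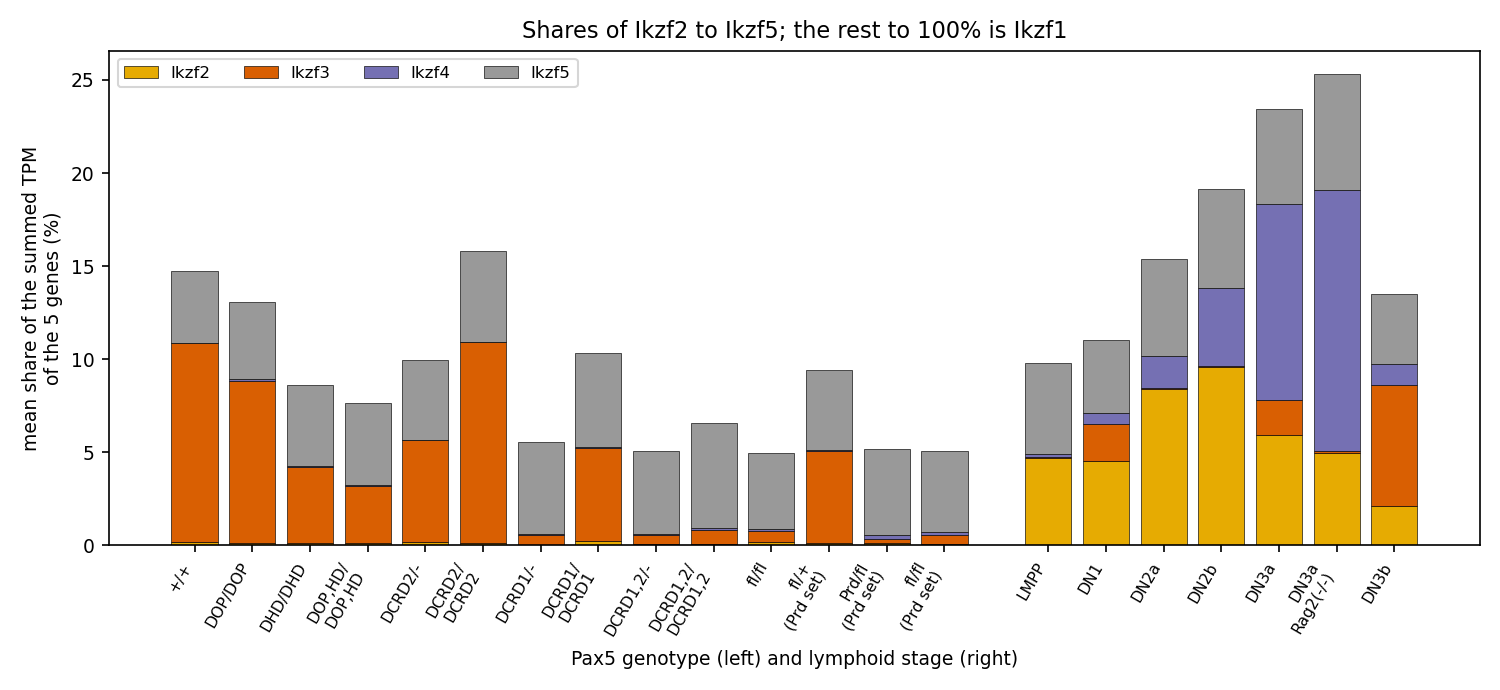
Mean share (%) of Ikzf2, Ikzf3, Ikzf4 and Ikzf5 in the summed TPM of the 5 genes by Pax5 genotype and by lymphoid stage, with the remainder being Ikzf1; the genotype and stage tables were processed separately. The orange share of Ikzf3 is 5.29% to 13.9% in single Pax5(+/+) samples and at most 0.856% where CRD1,2 or functional Pax5 was lost, and the purple share of Ikzf4 is 9.32% to 15.3% in single DN3a samples of both genotypes.

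Of the partner list, 1 of 22 genes was called from LMPP to DN1, beside 18.6% of all genes. It was Mta3, which rose by 1.67 on the log2 scale (adjusted p = 3.7e-07). The median of the list was 0.21, against -0.05 over all genes. Of the 11 targets, 6 were higher and 0 lower at this step (median 0.85), where 908 of 13482 genes were higher and 1598 lower. The largest were the Notch pathway genes Dtx1 (5.69, adjusted p = 5.1e-10), Hes1 (5.14, adjusted p = 1.3e-05) and Notch3 (2.38, adjusted p = 8.3e-08). At DN3a to DN3b, 9 of 11 targets were lower and 0 higher (median -2.38, against -0.41 over all genes), where 53.4% of all genes were called, 5286 of them lower and 1909 higher.

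The genes with the most similar pattern were named for each member as a description, without a test. Over 11 Pax5 genotype means (25 samples, which differ in read length and gate), Ikzf3 was most like Lgr5 (Pearson's r = 0.99), Myo1e (0.99) and Slc39a13 (0.98). Lgr5 means ran from 0.181 to 39.7 TPM and Myo1e means from 0.177 to 9.13 TPM. For Ikzf1 the genes were Tirap (0.95), Ube4b (0.95) and Fam149b (0.95), for Ikzf5 Arl5b (0.96), Xpr1 (0.96) and Phc3 (0.95), for Ikzf2 Atxn7 (0.95), Lcor (0.95) and Cdk16 (0.94), and for Ikzf4 1700017B05Rik (0.96), Cnpy3 (0.95) and Celsr1 (0.94). Each was picked as the highest of 10774 or 10775 candidates.

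Over the 6 wild-type lymphoid stage means, Ikzf4 was most like Prr7 (Pearson's r = 1.00), Zbtb25 (1.00) and Sipa1l1 (1.00). For Ikzf3 the genes were Xpnpep1 (0.99), Rrp1b (0.99) and Kat2a (0.99), and for Ikzf1 Fasn (0.99), Rcc2 (0.99) and Pelp1 (0.99). For Ikzf2 they were Lypd6b (0.99), Vpreb1 (0.97) and Commd4 (0.97), and for Ikzf5 Pdrg1 (1.00), Fdft1 (1.00) and Dgka (1.00). With 6 points and 10911 candidates, such values are a description of these stage means only.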

How the data were processed

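RNA-seq TPM values of 48 samples were used. For the pro-B samples the authors trimmed reads to 50 nt, aligned them to GRCm38/mm10 with STAR 2.4.2a and counted reads per gene, and deposited TPM, with raw counts in 2 samples. The lymphoid reads were aligned with TopHat 1.4.1 to mm9, and the authors deposited 2 TPM values per gene whose difference is not explained (treated as a score, since each column holds both); their mean was used and entries of exactly 1 were set to 0. In 8 pro-B files without gene names the row order of the named files was used, which gave a constant gene length in 100% of the 11662 rows compared. Gene length from the deposited counts gave whole reads (within 0.05) for 100% of low values, for 16745 genes.

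log2(TPM + 0.1) was fitted with limma 3.58.1 in R 4.3.3 (mean-variance trend, Benjamini-Hochberg adjustment, genes above 1 TPM in at least 1 sample), in 5 models: central domains (100-nt samples), C-terminal domains, homozygous and gene dose (both with read length as a term), paired domain set and lymphoid series. edgeR 4.0.16 quasi-likelihood tests on the recovered reads, other pseudocounts, filters, scalings, blocks and left-out samples were alternatives. The limma fits, and the edgeR fits outside the lymphoid series, were tested on simulated data for the first comparison of each model. Named genes were the members, Pax5, the called genes of largest change (up to 3 a direction) of a partner and a target list in 2 comparisons, and the 3 genes of most similar pattern (at least 5 TPM in a group). Gene names with an overlap suffix in the lymphoid files were matched without it. Marker lists served as checks. Members and lists were chosen with earlier results of these data known. ATAC-seq and ChIP-seq samples were not analysed here.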

Additional observations from a re-analysis of the deposited data

Results flagged for a closer look

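Ikzf5 in Pax5(+/+) pro-B cells had 1 sample far from the others. The first sample, with 50-nt reads, was at 18.7 TPM and the other 4 were between 12.5 and 14.2 TPM. The gap to the nearest was 0.722 of the whole range, above Dixon's 95% critical value of 0.71 for 5 samples. Chance alone flags about 1 group in 20, and 5 members were examined. The same sample was also the highest of the 5 in Ikzf1, Ikzf2 and Ikzf3.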

How the results depend on the processing

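The number of members called kept within 1.5 times its value in 557 of 572 repeats over 24 comparisons. A member kept its side of the threshold in 2295 of 2334 repeats, with 19 calls lost and 20 gained. No result that was called in either fit changed direction. Direction was not counted for results called in neither fit, and some of these changed sign. For example, Ikzf3 in Pax5(DOP/DOP) against Pax5(+/+) cells went from 0.29 to as low as -0.13 when 1 sample was left out. Without the term for read length, 4 members in place of 1 were called in Pax5(DCRD1,2/-), 0 in place of 2 in Pax5(DCRD1/DCRD1), and 1 in place of 0 in Pax5(DCRD1,2/DCRD1,2) and in Pax5(DCRD1/-), each against Pax5(DCRD1/DCRD1). Among 50-nt samples alone, 1 was called in Pax5(DCRD1/DCRD1) against Pax5(+/+). edgeR, also over all genes with 10 reads or more (an alternative added after seeing the data), called 1 in place of 0 in Pax5(DOP,HD/DOP,HD) and in Pax5(DCRD1,2/DCRD1,2) against Pax5(DCRD1/DCRD1). Leaving out 1 sample, the count ran from 1 to 2 for Pax5(DCRD1,2/-), for both homozygous genotypes without CRD1, and for Vav-Cre Pax5(Prd/fl) against Vav-Cre Pax5(fl/+), and from 1 to 4 for DN2a against DN1. With the replicate number as a block, 2 members in place of 3 were called from DN1 to DN2a (Ikzf1 was lost, log2 fold change -0.46), and no other call changed. The deviations of equal numbers correlated between -0.11 and 0.16 over the groups of 2 samples numbered 1 and 2, which gave no sign of pairing there. Pax5(+/+), DN1, DN2a and DN2b samples were outside this check, so it cannot tell whether the numbers pair them. Median-of-ratios scaling moved the median of all genes by over 0.1 at DN1 to DN2a, DN2b to DN3a, DN3a to DN3b and in Rag2(-/-) cells. The cause of these changes was not tested. Ikzf2 and Ikzf4 in pro-B cells are limited by depth.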
